A study of Mus musculus with 5 samples.

Results

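The T-box family of transcription factors was described in sorted fat progenitors by 9 of its genes, Tbx1, Tbx2, Tbx3, Tbx4, Tbx5, Tbx6, Tbx15, Tbx18 and Tbx20, which were taken by name and are 9 of the 54532 genes in the count table. Poly(A)-selected RNA was sequenced from 5 libraries of adipose-derived stem cells. The cells were wild-type, came from the subcutaneous (SAT) and visceral (VAT) fat of 30 mice aged 12 to 14 weeks on a chow diet, and were sorted without CD31+ and CD45+ cells. CD26, the product of Dpp4, marks interstitial progenitors of fat, and CD142, tissue factor, the product of F3, marks progenitors known as Aregs. By title the libraries are 1 from SAT CD26+CD142- cells (SAT library 1), 1 from SAT CD26-CD142+ cells (SAT library 2), a pair from VAT CD26-CD142+ cells and 1 from VAT CD26+CD142+ cells. The library names give SAT library 1 as CD142 and SAT library 2 as CD26, which is the opposite of their titles. The labels do not say how the mice were divided among the libraries, so the spread between libraries may not be the spread between animals.

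The libraries held between 21706345 and 25357403 counts, and values are given as CPM, the counts of a gene per 1000000 counts of its library after TMM scaling. Dpp4 was at 6.57 CPM in SAT library 1 and 1006 CPM in SAT library 2, and F3 was at 618 and 5.32 CPM, so the sort genes went against the SAT titles. Results that use the SAT gates are therefore given by title and by library name. The 7 fat progenitor markers were present in every library, with summed levels of 15420 to 21851 CPM in SAT and 15882 to 23042 CPM in VAT. Pecam1, which encodes CD31, stayed between 2.32 and 7.25 CPM. The 2 libraries numbered 1 stood apart by mitochondrially encoded genes, which took 2.83% and 4.33% of their counts against 0.554% to 0.633% in the 3 libraries numbered 2.

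T-box proteins bind DNA through the shared domain that gives the family its name, and they act as activators or repressors that set the identity of mesoderm-derived tissues in the embryo. Several come as close relatives: Tbx15 with Tbx18, Tbx2 with Tbx3, and Tbx4 with Tbx5. Adult stromal cells can keep the T-box genes of the body region in which their precursors arose, and Tbx15 is known as a gene that differs between fat depots.

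Promoter windows, from 250 bases before to 50 bases after the annotated start, were found for 5 of the 9 genes in the RefSeq table of build GRCm38.p6: Tbx1 with 2 starts, Tbx4, Tbx6, Tbx18 and Tbx20. The windows below are shown because they belong to genes with 3 different patterns in these libraries: Tbx1 was higher in SAT, Tbx18 was seen in both depots and Tbx20 had no counts. Capitals mark the T-box half-site AGGTGT or its reverse complement ACACCT, both of which were searched.
Tbx1, upstream start, chr16:18590622-18590921, minus strand: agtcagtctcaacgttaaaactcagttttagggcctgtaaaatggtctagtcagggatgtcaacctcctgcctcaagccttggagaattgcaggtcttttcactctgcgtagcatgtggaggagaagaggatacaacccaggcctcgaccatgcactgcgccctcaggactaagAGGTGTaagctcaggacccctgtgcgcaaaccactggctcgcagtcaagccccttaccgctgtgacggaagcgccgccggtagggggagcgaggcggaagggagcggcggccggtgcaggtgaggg
Tbx1, downstream start, chr16:18588850-18589149, minus strand: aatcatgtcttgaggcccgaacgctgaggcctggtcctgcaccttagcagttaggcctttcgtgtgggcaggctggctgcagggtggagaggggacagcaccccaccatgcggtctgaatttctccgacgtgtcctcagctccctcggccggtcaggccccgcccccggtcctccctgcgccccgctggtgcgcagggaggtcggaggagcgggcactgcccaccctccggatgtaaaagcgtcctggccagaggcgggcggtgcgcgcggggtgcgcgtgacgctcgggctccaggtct
Tbx18, chr9:87731211-87731510, minus strand: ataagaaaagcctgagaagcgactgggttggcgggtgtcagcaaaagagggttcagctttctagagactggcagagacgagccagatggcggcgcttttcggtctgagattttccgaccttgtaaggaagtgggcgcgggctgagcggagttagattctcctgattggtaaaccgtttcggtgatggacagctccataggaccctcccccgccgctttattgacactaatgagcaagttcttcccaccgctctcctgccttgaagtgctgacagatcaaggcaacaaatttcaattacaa
Tbx20, chr9:24774254-24774553, minus strand: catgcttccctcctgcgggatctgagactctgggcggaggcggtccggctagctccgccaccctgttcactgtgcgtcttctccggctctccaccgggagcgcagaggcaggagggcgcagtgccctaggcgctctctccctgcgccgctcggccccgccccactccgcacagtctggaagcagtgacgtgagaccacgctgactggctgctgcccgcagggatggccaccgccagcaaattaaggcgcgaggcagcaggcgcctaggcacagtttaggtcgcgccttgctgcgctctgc
The half-site occurred in 1 of the 6 windows of these genes, the upstream start of Tbx1, and in 13.7% of all 32851 windows of the same length in the table. The 2 Tbx1 windows held 16 and 26 CpG dinucleotides, that of Tbx4 8, that of Tbx6 7, that of Tbx18 15 and that of Tbx20 26. The median over all windows was 7. The gene with no counts thus had as many as the downstream start of Tbx1.

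Tbx15 made up most of the T-box signal in SAT and nearly none of it in VAT. Levels were compared between genes only as CPM per kilobase of the deposited gene length. On that scale the 9 genes summed to 50.6 in SAT library 1 and 39.3 in SAT library 2, and to 10.5, 11.9 and 9.19 in the 3 VAT libraries. Tbx15 took 68.0% and 66.0% of this sum in the SAT libraries and between 0.290% and 0.701% in the VAT libraries. As a share of T-box counts, Tbx15 was 66.3% (95% Clopper-Pearson interval 64.9 to 67.7) in SAT library 1, which had 4499 of them, and 0.662% (0.243 to 1.43) in VAT CD26-CD142+ library 1, which had 907. In VAT the sum was divided mainly among Tbx18 (28.2% to 38.6%), Tbx6 (27.6% to 35.9%), Tbx3 (14.2% to 21.4%) and Tbx2 (8.52% to 17.5%).

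**Figure D1:**
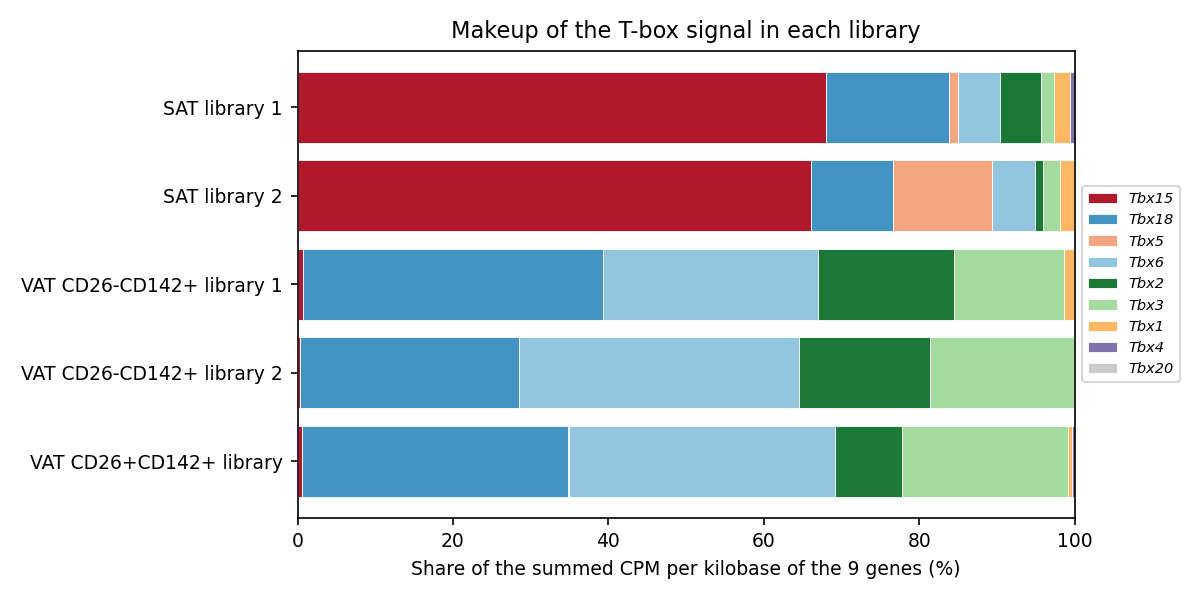
Share of each T-box gene in the summed CPM per kilobase of the 9 genes (x axis, percent) for each of the 5 libraries (y axis); each coloured segment is 1 gene. Tbx15 fills 68.0% and 66.0% of the SAT bars and at most 0.701% of any VAT bar.

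The order of levels differed between the depots. In SAT, Tbx15 came first at 30.2 ± 5.98 CPM per kilobase (SD, n = 2), above every value of the next gene, Tbx18, at 6.10 ± 2.70. Tbx5 (2.81 ± 3.09), Tbx6 (2.44 ± 0.377), Tbx2 (1.53 ± 1.63), Tbx3 (0.860 ± 0.0443) and Tbx1 (0.856 ± 0.250) followed, and from Tbx18 to Tbx1 each gene overlapped the next in the order. Tbx4 lay below Tbx1 without overlap, at 0.192 ± 0.196, and Tbx20 had 0 counts. In VAT, Tbx18 (3.51 ± 0.469, SD, n = 3) and Tbx6 (3.44 ± 0.728) overlapped, and both lay above Tbx3 (1.88 ± 0.363) and Tbx2 (1.54 ± 0.660), which also overlapped. Tbx1 (0.0590 ± 0.0660), Tbx15 (0.0542 ± 0.0195), Tbx4 (0.0208 ± 0.0134) and Tbx5 (0.00587 ± 0.0102) all lay below these, and neighbours among them overlapped.

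**Figure D2:**
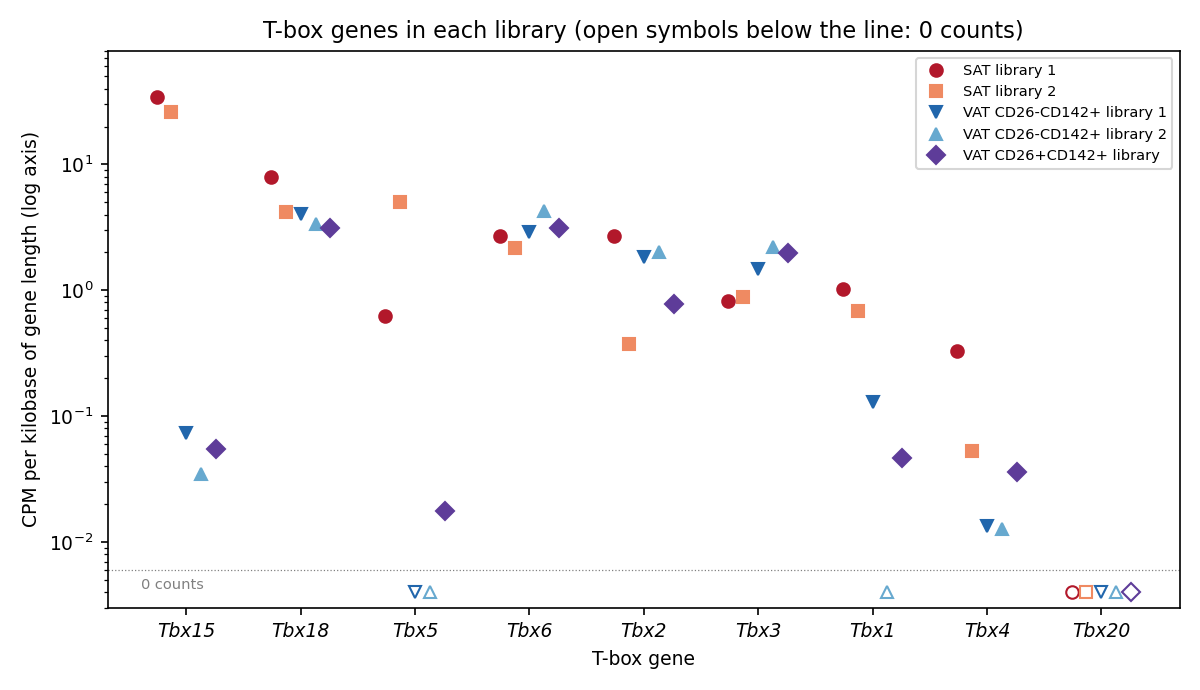
CPM per kilobase of gene length (y axis, log scale) for the 9 T-box genes (x axis) in each of the 5 libraries; open symbols below the dotted line stand for 0 counts. Tbx15, Tbx5 and Tbx1 separate the SAT from the VAT libraries, whereas Tbx6 and Tbx2 lie close together or cross.

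SAT was first set against VAT over all gates, which asks how T-box genes differ with the depot and does not use the conflicting SAT gate labels. The gates were not balanced between the depots. By title and by name, SAT includes a CD26+CD142- library, whereas every VAT library is CD142+. The comparison over all gates therefore cannot by itself separate the depot from the mix of gates. Of the 9 genes, 7 passed the filter on low counts, and Tbx4 and Tbx20 did not. With edgeR's quasi-likelihood test adjusted over 15920 genes, 1 of the 7, Tbx15, was called as higher in SAT and 0 as lower, where 0.0503% of all tested genes were called, 0.0377% as higher and 0.0126% as lower. At an unadjusted p under 0.05, 4 of the 7 passed (Tbx1, Tbx3, Tbx5 and Tbx15), against 6.76% of all tested genes. In 6 of the 7 the SAT and VAT libraries did not overlap, 4 being higher and 2 lower in SAT. Such separation was seen in 19.8% of all tested genes, 9.64% with SAT higher and 10.2% with SAT lower. The median log2 change of the 7 was 0.80, which is the change of Tbx18, against 0.01 over all tested genes. Tbx1, Tbx5 and Tbx15 passed the filter through their SAT counts. The filter thus favoured a higher value in SAT for these genes, and the counts and the median above are no independent support for one. These are bulk samples, in which fewer cells of a type and less RNA per cell cannot be told apart.

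Tbx15, a factor of skin and skeletal patterning and of subcutaneous fat (ENSMUSG00000027868, mm10 chromosome 3, 99240381 to 99354259), was at 129 CPM in SAT library 1 and 97.1 CPM in SAT library 2. In VAT it was at 0.275, 0.129 and 0.206 CPM, from 6, 3 and 5 counts. Both SAT libraries were far above all VAT libraries. Over the depots this was 562-fold (95% counting interval 335 to 1028), a fitted log2 change of 9.09 (SE 0.39, obtained as the change over the root of its F statistic, edgeR adjusted p = 0.0172). The call ended without any 1 of the VAT libraries (edgeR adjusted p = 0.156 and 0.353 without VAT CD26-CD142+ library 1 and 2, and 0.158 without the VAT CD26+CD142+ library). It also ended with limma-voom (0.179), in the libraries numbered 2 alone (0.103) and when the titles' CD26 status entered the model (0.190), although the log2 change stayed between 8.84 and 9.35 in all 15 alternatives run.

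Tbx18 (ENSMUSG00000032419, chromosome 9, 87702800 to 87731260), the close relative of Tbx15 and a gene of mural cells and of the heart's outer layer, was present in both depots. It was at 37.8 CPM (95% interval 35.3 to 40.4) in SAT library 1 and 19.8 CPM (18.0 to 21.7) in SAT library 2. The VAT values were 19.1, 15.8 and 14.8 CPM. SAT library 2 lay only slightly above the highest VAT library, within its counting interval, so the depot means of 28.8 ± 12.7 CPM (SD, n = 2) and 16.6 ± 2.21 CPM (SD, n = 3) rest on SAT library 1. The log2 change was 0.80 (SE 0.33, edgeR adjusted p = 0.769). Without SAT library 1 it was 0.25. The 10 mural markers summed to 153 CPM in SAT library 1, 57.5 CPM in SAT library 2 and between 120 and 227 CPM in VAT. Their part in the Tbx18 values was not tested.

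Tbx5 (ENSMUSG00000018263, chromosome 5, 119832668 to 119885219), a factor of the forelimb and heart, had counts almost only in SAT. It was at 2.90 CPM (2.24 to 3.68) in SAT library 1 and 23.3 CPM (21.4 to 25.4) in SAT library 2. In the VAT CD26-CD142+ pair it had 0 counts, and in the VAT CD26+CD142+ library it had 2 counts. Over the depots this was 448-fold (counting interval 123 to 3706). The depot change did not pass (edgeR adjusted p = 0.259), with an 8.06-fold difference between the 2 SAT libraries. It passed with DESeq2 (adjusted p = 7.47e-07) and in edgeR when the CD26 status of the library names entered the model (adjusted p = 0.0207).

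Tbx4 (ENSMUSG00000000094, chromosome 11, 85886422 to 85916097), the relative of Tbx5 in the hindlimb and lung, was close to the limit of detection. It had 26 and 4 counts in the SAT libraries and 1, 1 and 3 in the VAT libraries. The ratio over the depots was 9.18 (counting interval 3.53 to 30.3), and it was not tested because it failed the filter. Most of its SAT counts came from SAT library 1, at 1.12 CPM against 0.180 CPM in SAT library 2. SAT library 1 was also where the 7 mammary and skin epithelial markers summed to 63.3 CPM, against 0.135 to 0.859 CPM in the other libraries. Nearly all of that sum was Epcam at 25.2, Cldn4 at 18.8, Csn3 at 17.0 and Elf5 at 1.90 CPM. The keratins of the list, Krt5, Krt14 and Krt15, were at most 0.302 CPM there. The part of these markers in the Tbx4 counts was not tested.

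Tbx1 (ENSMUSG00000009097, chromosome 16, 18580979 to 18590671), a factor of the pharyngeal arches whose loss is linked to DiGeorge syndrome and which has been used as a marker of beige fat cells, was low in both depots and higher in SAT. It was at 3.63 and 2.39 CPM in SAT, from 84 and 53 counts. In VAT it had 10, 0 and 4 counts, so the highest VAT library was at 0.458 CPM. The ratio was 15.0 (counting interval 8.63 to 28.1) and the log2 change 3.84 (SE 1.21, edgeR adjusted p = 0.576).

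Tbx3 (ENSMUSG00000018604, chromosome 5, 119670669 to 119684724), a repressor that acts in limb, heart and mammary development, was lower in SAT without passing. It was at 5.49 and 5.90 CPM in the SAT libraries and at 9.85, 14.6 and 13.01 CPM in the VAT libraries. The 2 SAT libraries agreed within their counting intervals and both lay below VAT. The log2 change was -1.13 (SE 0.30, edgeR adjusted p = 0.482). Tbx6 (ENSMUSG00000030699, chromosome 7, 126781483 to 126785560), a factor of the mesoderm that forms the somites, was at 4.88 and 3.92 CPM in SAT and 5.22, 7.69 and 5.68 CPM in VAT. The highest SAT and the lowest VAT library of Tbx6 overlapped in their counting intervals, and its log2 change was -0.49 (SE 0.36, edgeR adjusted p = 1.00).

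Tbx2 (ENSMUSG00000000093, chromosome 11, 85832551 to 85841948), the repressor most like Tbx3, did not follow the depot. It was at 9.72 and 1.35 CPM in the SAT libraries and at 6.64, 7.26 and 2.84 CPM in the VAT libraries. The SAT libraries were thus the highest and the lowest of all 5, and the log2 change was -0.01 (SE 0.88, edgeR adjusted p = 1.00). It was -2.05 without SAT library 1 and 0.79 without SAT library 2. Tbx20 (ENSMUSG00000031965, chromosome 9, 24718138 to 24774303), a heart factor, had 0 counts in all 5 libraries, which allows up to 0.0261 CPM at 3 counts over the libraries together.

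**Figure D3:**
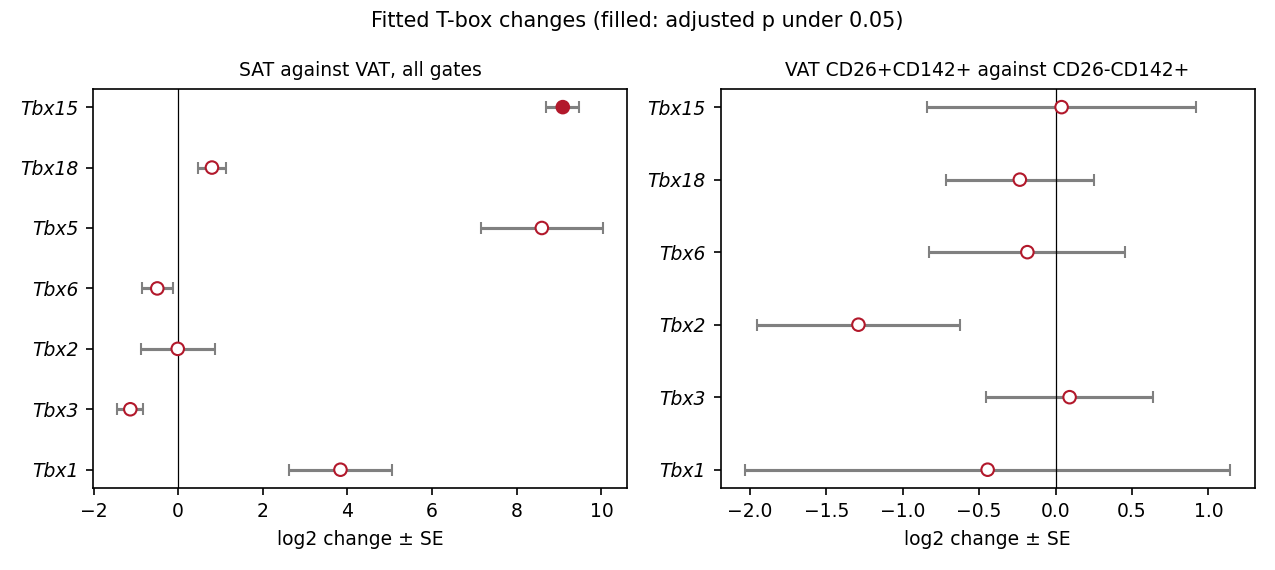
Fitted log2 change (x axis) with its SE for the tested T-box genes (y axis), SAT against VAT over all gates on the left and VAT CD26+CD142+ against VAT CD26-CD142+ on the right; filled points have an edgeR adjusted p under 0.05. Tbx15 at 9.09 is the 1 filled point; Tbx5 is left out on the right because both of its groups lie at or under 3 counts.

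Within the CD142+ gate, the depots were compared by setting each SAT library against the VAT CD26-CD142+ pair in a fit of 4 groups with 1 residual degree of freedom, in which a lone library is assumed to vary like that pair. Both versions share the VAT pair, so they are given side by side and not as repeats. Tbx15 and Tbx5 rose with either SAT library, and 0 of the 7 tested genes were called as lower. These are 2 of 7 each way. Of all tested genes, 6.48% were called by title, 2.80% as higher and 3.68% as lower. By name 2.36% were called, 1.36% as higher and 0.992% as lower. At an unadjusted p under 0.05, 4 of the 7 passed by title and 4 by name, against 14.6% and 9.38% of all tested genes.

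Tbx15 was higher by 8.88 (SE 0.63, edgeR adjusted p = 9.13e-07) with SAT library 2, the one titled CD26-CD142+, and by 9.29 (SE 0.64, edgeR adjusted p = 3.26e-06) with SAT library 1, the one named CD142. Tbx5 had 0 counts in the VAT pair and was at least 351-fold higher with SAT library 2 (edgeR adjusted p = 1.35e-05) and at least 43.5-fold higher with SAT library 1 (edgeR adjusted p = 6.10e-04), against a floor of 3 counts over the pair. Tbx2 was the gene whose direction turned with the choice: its log2 change was -2.36 (SE 0.72, edgeR adjusted p = 0.0671) by title and 0.48 (SE 0.61, edgeR adjusted p = 0.983) by name. Tbx2 passed by title under upper-quartile scaling (adjusted p = 0.0375) or without the filter (0.0396). Tbx1 was at 3.37 (SE 1.30) by title and 3.97 (SE 1.30) by name, Tbx18 at 0.18 and 1.12, Tbx3 at -1.05 and -1.15, and Tbx6 at -0.72 and -0.40. None of these 4 passed, although Tbx1 did without the filter both ways.

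In VAT, where titles and library names do not conflict, the CD26+CD142+ library was set against the CD26-CD142+ pair. With edgeR 0 of the 7 tested T-box genes were called, 1 (Tbx5) had an unadjusted p under 0.05, and DESeq2 and limma-voom also called 0. Of all tested genes 1.60% were called, 0.898% as higher and 0.697% as lower, and 8.38% had an unadjusted p under 0.05. Tbx2 had the largest change of the genes with over 20 counts in VAT, at 2.84 CPM in the CD26+CD142+ library against 6.95 ± 0.438 CPM (SD, n = 2) in the pair. This was 2.45-fold lower in CD26+CD142+ cells (counting interval 1.88 to 3.23), a log2 change of -1.29 (SE 0.67, edgeR adjusted p = 0.721). Tbx18 was at 14.8 CPM against 17.4 ± 2.29 CPM (log2 -0.23, SE 0.48), Tbx3 at 13.01 against 12.2 ± 3.33 CPM (0.09, SE 0.55) and Tbx6 at 5.68 against 6.46 ± 1.75 CPM (-0.18, SE 0.64). For Tbx3 and Tbx6 the CD26+CD142+ library lay between the members of the pair. Tbx15 (0.206 CPM), Tbx1 (0.165 CPM) and Tbx5 (0.0823 CPM) had between 2 and 5 counts in the CD26+CD142+ library and at most 10 in either library of the pair. They passed the filter through their SAT counts. This comparison could therefore hardly call them and says little about their gate difference. The unadjusted result of Tbx5 stands on 2 counts against 0 in the pair.

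The 2 SAT libraries have no replicate and were set side by side without a test. Tbx5 was 8.06-fold higher (counting interval 6.24 to 10.6) in SAT library 2, where Dpp4 was high, than in SAT library 1. Tbx2 went the other way and was 7.19-fold higher (4.90 to 10.9) in SAT library 1, where F3 was high. Tbx4 was 6.23-fold (2.16 to 24.6), Tbx18 1.91-fold (1.70 to 2.15), Tbx1 1.52-fold (1.07 to 2.19) and Tbx15 1.33-fold (1.25 to 1.40) higher in SAT library 1. Tbx3 (0.930, 0.723 to 1.20) and Tbx6 (1.25, 0.934 to 1.67) had counting intervals that include equal levels. These intervals, like all others here, cover counting error only.

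A model with both CD26 status and depot compared the CD26 gates over all 5 libraries. By title the CD26+ cells are CD142- in SAT and CD142+ in VAT, so CD142 changes with CD26 in SAT only. By name the CD26 library of SAT likewise lacks CD142, and that of VAT carries it. The model and the difference between depots therefore set unlike gates together. Read by library name, Tbx2 was lower in CD26+ libraries by 1.91 on the log2 scale (-1.91, SE 0.49, edgeR adjusted p = 0.172). The 3 libraries named for CD142 alone were at 9.72, 6.64 and 7.26 CPM for Tbx2, and the 2 libraries with CD26 in their name were at 1.35 and 2.84 CPM. Tbx5 was higher (3.09, SE 0.57, edgeR adjusted p = 0.108). That change rests on SAT, at 23.3 CPM in SAT library 2 against 2.90 CPM in SAT library 1, with 1 library on each side. In VAT Tbx5 had 2 counts in the CD26+CD142+ library and 0 in each library of the pair. With edgeR 0 of 7 passed, 2 (Tbx2 and Tbx5) had an unadjusted p under 0.05, DESeq2 called both and limma-voom called 0. Of all tested genes 0.597% were called by name, 0.320% as higher and 0.276% as lower, and 16.0% had an unadjusted p under 0.05. Read by title, 0 of 7 passed and 0 had an unadjusted p under 0.05 with edgeR, and DESeq2 and limma-voom called 0; of all tested genes 0% were called. The difference of the CD26 effect between the depots, in the 4-group fit, was called for 1 of 7 by title, Tbx2, and 0 of 7 by name, where 6.61% and 0.251% of all tested genes were called.

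Summed levels of several marker lists divided the libraries by gate name, as Tbx2 did. The mural sum was 153, 216 and 227 CPM in the 3 libraries named for CD142 alone, and 57.5 and 120 CPM in the other 2, but its members differed among themselves. Des, the desmin gene and the most abundant of them in VAT, was at 3.20 and 14.4 CPM in SAT libraries 1 and 2, against the order of Tbx2, at 138 and 120 CPM in the VAT pair and at 96.4 CPM in the VAT CD26+CD142+ library. Mcam, an adhesion molecule gene, and Rgs5, a pericyte gene, were also higher in SAT library 2 than in SAT library 1, at 2.30 against 1.30 CPM and 4.06 against 2.33 CPM. Among the others Myh11, a smooth muscle myosin gene, was at 37.9 and 62.5 CPM in the VAT CD26-CD142+ pair and 5.97 CPM in the VAT CD26+CD142+ library, and at 5.66 and 5.00 CPM in SAT. Abcc9, which encodes a potassium channel subunit of pericytes, was at 98.0 and 12.0 CPM in the SAT libraries, 7.24 and 8.51 CPM in the VAT pair and 0.535 CPM in the VAT CD26+CD142+ library. Of the 10 mural markers 1 stayed under 1 CPM in all libraries, and 0 were at 0 in all. The 5 mature adipocyte markers summed to 16.7, 9.80 and 18.1 CPM in the libraries named for CD142 alone and to 0.406 and 0.741 CPM in the other 2. In the same order, the macrophage markers summed to 32.4, 30.4 and 19.5 CPM against 9.19 and 17.4 CPM. Of them Cd68 alone divided the libraries this way, at 10.1, 19.0 and 11.5 CPM against 2.61 and 4.12 CPM. The fat progenitor markers summed to 21851, 23042 and 19808 CPM against 15420 and 15882 CPM. Most of this was Dcn, at 13977, 18341 and 16028.5 CPM against 9313 and 10882 CPM. Lum went the same way. Cd34 was reversed, at 1369, 993 and 740 CPM against 1858 and 1684 CPM. Pdgfra, Ly6a, Thy1 and Prrx1 did not divide the libraries by gate name. The sum of the 6 blood endothelial markers went the other way from the sums above, at 32.1, 71.4 and 74.5 CPM against 314 and 299 CPM. Most of that sum was Tek, which encodes an angiopoietin receptor, at 290.1 and 286 CPM in the libraries with CD26 in their name, while Pecam1, Cdh5, Kdr, Tie1 and Emcn were each at most 7.25 CPM in every library. The part of these lists in the Tbx2 and Tbx5 values was not tested. The 12 mesothelial markers summed to 374 CPM in the VAT CD26+CD142+ library, 116 and 172 CPM in the VAT pair, 174 CPM in SAT library 1 and 4.64 CPM in SAT library 2. These sums had different makeups. In SAT library 1 nearly all was keratins, with Krt19 at 63.6, Krt18 at 46.6, Krt8 at 45.7 and Krt7 at 16.1 CPM. The other mesothelial markers, Msln and Wt1 among them, were at most 1.21 CPM there. In the VAT pair most was Wt1, at 113 and 154 CPM. The part of the mesothelial markers was not tested either.

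**Figure D4:**
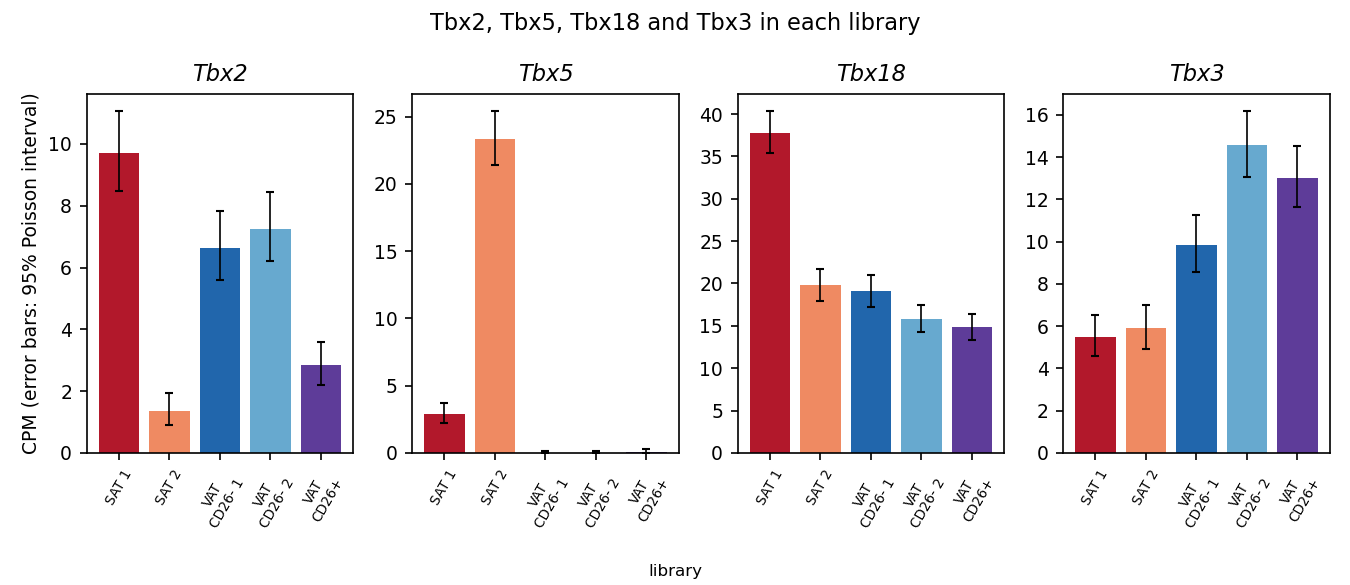
CPM (y axis, from 0) of Tbx2, Tbx5, Tbx18 and Tbx3 in each of the 5 libraries (x axis), with error bars for the 95% Poisson interval. Tbx2 is lowest in SAT library 2 and the VAT CD26+CD142+ library, Tbx5 is high in SAT library 2 at 23.3 CPM, Tbx18 is high in SAT library 1 at 37.8 CPM, and Tbx3 is lower in both SAT libraries.

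Of these genes, 4 lie in pairs on the chromosome, Tbx3 with Tbx5 and Tbx2 with Tbx4. Tbx2 and Tbx4 were both higher in SAT library 1 than in SAT library 2, at 9.72 against 1.35 CPM and 1.12 against 0.180 CPM, but in VAT Tbx2 was at 2.84 to 7.26 CPM and Tbx4 had at most 3 counts. Tbx3 and Tbx5 start 162 kb apart and lay in opposite directions between the depots. Tbx3 was at 5.49 to 5.90 CPM in SAT and 9.85 to 14.6 CPM in VAT, while Tbx5 was at 2.90 to 23.3 CPM in SAT and at most 0.0823 CPM in VAT. Gm43050, a long noncoding RNA gene on the opposite strand that starts 0.748 kb upstream of Tbx5 (chromosome 5, 119828448 to 119831920), had 226 and 196 counts in the SAT libraries and 4, 0 and 3 in VAT. It was similar in the 2 SAT libraries, at 9.77 and 8.83 CPM, unlike Tbx5. The log2 change of Gm43050 between the depots was 6.44 (edgeR adjusted p = 0.185). Rbm19, the protein-coding gene on the far side of Tbx5, had a log2 change of 0.06 (SE 0.34).

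The 1 tested neighbour of Tbx15 did not share its change. Wars2, which encodes a mitochondrial tRNA synthetase and ends next to the start of the Tbx15 gene, had a log2 change of 0.06 (SE 0.44) between the depots. It was the 1 other tested gene that starts within 500000 bases of Tbx15. Spag17, on the other side, had 7 counts in SAT library 1 and 0 in the other 4. Bcas3, next to Tbx2, was at -0.20 (SE 0.23), and Nt5e, the CD73 gene next to Tbx18, at -0.92 (SE 0.43, edgeR adjusted p = 0.842). Over the windows of all 9 genes, 0 of the tested neighbours passed between the depots with edgeR, where 0.0503% of all tested genes passed. At so low a share, a count of 0 says little about the neighbours.

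**Figure D5:**
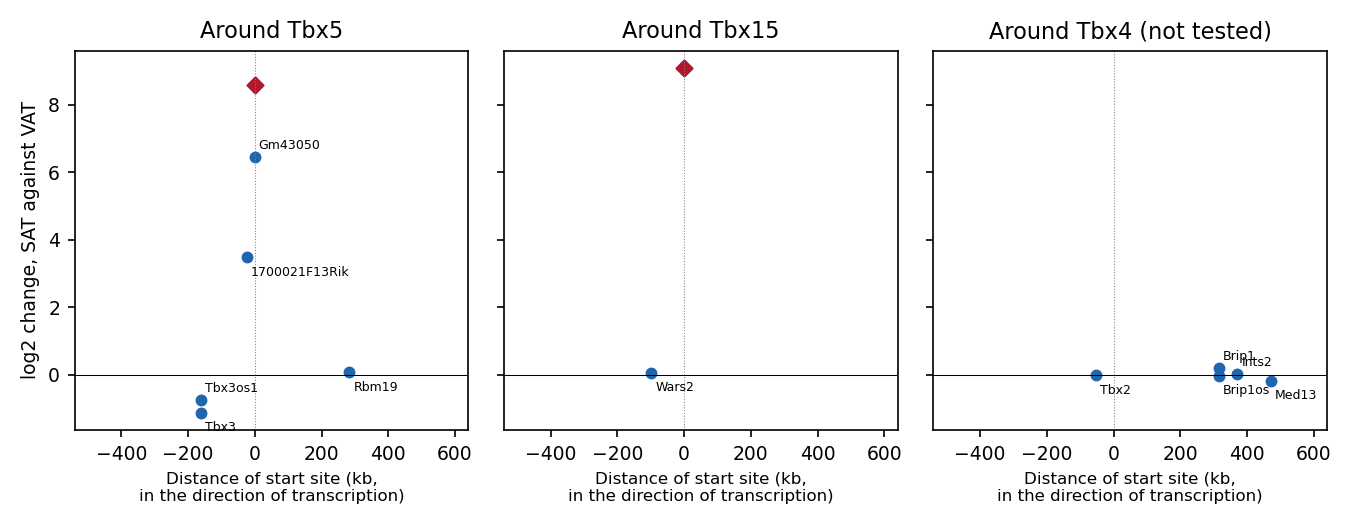
Log2 change of tested genes between SAT and VAT (y axis) against the distance of their start from that of Tbx5, Tbx15 and Tbx4 in kilobases (x axis); the diamond at 0 is the T-box gene itself where it was tested. Beside Tbx5 at 0 kb lies Gm43050 at 6.44, whereas Tbx3 at 162 kb upstream is at -1.13, and Wars2 beside Tbx15 is at 0.06.

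Some reads can be shared with overlapping genes, since the counting is not stated to use strand. Tbx3os1 overlaps Tbx3 on the opposite strand by 697 bases and had 4 to 26 counts. Gm43120 lies within Tbx15 on the opposite strand, with 4 and 5 counts in the SAT libraries and 0 in each VAT library. D030062O11Rik overlaps the start of Tbx18 with 21 to 66 counts. All of these counts were below those of the T-box gene in every library, with D030062O11Rik at 66 against 368 for Tbx18 in VAT CD26-CD142+ library 2. They do not measure how many reads the T-box genes gained or lost at the overlaps. Tbx3os2, a noncoding gene beside Tbx3, had 9 counts in SAT library 1 and 0 in the other 4.

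The other 8 genes of the family were mostly silent. Mga, the largest member, which joins a T-box to a domain that pairs with MAX, was at 42.3, 44.2, 75.4, 83.9 and 84.6 CPM in SAT library 1, VAT CD26-CD142+ library 1, SAT library 2, VAT CD26-CD142+ library 2 and the VAT CD26+CD142+ library. The 2 lower values are those of the libraries numbered 1, which also had the higher mitochondrial shares, and the part of that difference was not tested. Between the depots the change of Mga was -0.27 (SE 0.41, edgeR adjusted p = 1.00). The remaining 7 stayed under 1 CPM in every library, and 2 of them, Tbx19 and Tbx22, had 0 counts throughout. Eomes and Tbx21, the T-box genes of cytotoxic lymphocytes, had 1 and 7 counts in all, and the 8 lymphocyte markers summed to between 0.475 and 1.73 CPM.

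Cofactors of T-box proteins were described from a list of 21 symbols, of which 20 are in the table and 12 were tested. Between the depots over all gates 0 of the 12 passed in either direction with edgeR, where 0.0503% of all tested genes did. At an unadjusted p under 0.05 there were 5, against 6.76% of all tested genes, and their median log2 change was 0.07. Tle2, which encodes a corepressor of the Groucho family, was at 36.9 and 28.8 CPM in SAT and 5.82, 9.49 and 11.03 CPM in VAT (log2 1.90, SE 0.34, edgeR adjusted p = 0.299). Tle6 of the same family was at 17.4 and 19.5 CPM against 4.31, 3.18 and 7.37 CPM (1.90, SE 0.41, edgeR adjusted p = 0.376). Tle1 lay the other way, at 47.4 and 42.4 CPM against 92.4, 106 and 71.6 CPM (-1.001, SE 0.26, edgeR adjusted p = 0.464). Within the CD142+ gate 2 of the 12 rose and 1, Gata4, fell by title, and 2 rose and 0 fell by name, where 6.48% and 2.36% of all tested genes were called. Tle2 and Tle6 passed with either SAT library, in comparisons that share the VAT pair: Tle2 rose by 1.91 (SE 0.48) by title and 2.27 (SE 0.48) by name, and Tle6 by 2.38 (SE 0.52) and 2.21 (SE 0.52). Gata4, a heart and visceral mesoderm factor that works with Tbx5 and Tbx20 in the heart, was at 0.0864 CPM and 0 in SAT and 3.16, 1.68 and 0.576 CPM in VAT.

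Of 22 genes reported as T-box targets elsewhere, 12 were tested and 1 passed between the depots over all gates, Shox2, a limb homeobox gene that was at 53.7 and 29.7 CPM in SAT and had 1 count in VAT. Of all tested genes 0.0503% passed. The median log2 change of the 12 was 0.55. Mef2c, a muscle and heart factor, was at 19.7 and 34.3 CPM in SAT and 5.95, 6.74 and 6.34 CPM in VAT (2.09, SE 0.31, edgeR adjusted p = 0.185). Cdkn2b, a cell cycle inhibitor gene of the locus that Tbx2 and Tbx3 repress, was at 0.821 and 0.631 CPM in SAT and 7.33, 6.14 and 1.56 CPM in VAT (-2.78, SE 0.81, edgeR adjusted p = 0.527). Fgf10, the limb and lung growth factor gene downstream of Tbx4 and Tbx5, was at 67.6 CPM in SAT library 1 and 17.4 CPM in SAT library 2, the reverse of Tbx5. It was at 53.9, 47.1 and 23.8 CPM in VAT, where Tbx5 had at most 2 counts. In VAT 1 target rose in CD26+CD142+ cells and 0 fell, where 1.60% of all tested genes were called. It was Bmp2 (2.54, SE 0.51, edgeR adjusted p = 0.0197), which encodes a bone morphogenetic protein. Within the CD142+ gate by title 4 of the 12 targets rose (Bmp2, Mef2c, Shox2 and Wnt11) and 1, Cdkn2b, fell, against 6.48% of all tested genes called. By name 1 rose, Shox2, and 0 fell, against 2.36%.

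The genes whose pattern over the 5 libraries was most like a T-box gene were found by the distance between centred log2(CPM + 1) profiles, among 9707 protein-coding genes with at least 10 CPM in 1 library. Nearest to Tbx15 were Shox2 (distance 1.37), the matrix protease gene Mmp3 (1.54) and the retinol dehydrogenase gene Adh7 (1.65). Nearest to Tbx5 were the heparan sulfate sulfotransferase gene Hs3st3b1 (0.664), the homeobox gene Irx5 (0.757) and the cadherin gene Cdh9 (0.772). Irx5 was at 4.84 and 16.8 CPM in the SAT libraries and at 0.0916 CPM and 0 in VAT, so it shared with Tbx5 the higher value in SAT library 2. Nearest to Tbx18 were Grn (0.0715), Cdr2 (0.120) and Pwwp2b (0.151), and nearest to Tbx3 were Klhl2 (0.127), Gli3 (0.181), which encodes a Hedgehog pathway factor, and Cdk17 (0.191). Profiles with large differences lie farther from all other genes, so the distances do not compare between T-box genes, and all rest on 5 libraries.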

How the data were processed

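Reads were mapped and counted by the authors. Per the submitters' processing notes the tools were CASAVA, HISAT2 2.0.5 and featureCounts 1.5.0-p3 with build mm10; annotation release and strand setting are not given in the sources used here. The authors deposited raw read counts per gene, and the deposited table gives another value per gene, its length in bases. Total counts per library were 21706345 to 25357403. No 2 libraries agreed within sampling noise.

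The filter filterByExpr (minimum count 10, grouped by depot) passed 15920 of 54532 genes. Library sizes were corrected by TMM (trimmed mean of M values), and edgeR 4.0.16 (quasi-likelihood, robust) gave p-values, adjusted over the 15920 genes by Benjamini-Hochberg with a threshold of 0.05. DESeq2 1.42.0 and limma 3.58.1 were alternatives. The depot fit had 3 residual degrees of freedom, the fit with CD26 status and depot 2, and the 4-group fit 1. The difference of the gate effect between depots was a contrast in the 4-group fit and was added after the data were seen. Intervals at 95% are exact Poisson, Clopper-Pearson or conditional, from scipy 1.17.1. They describe counting error alone, because the reads carry no molecular identifiers and may repeat a molecule, and a count of 0 is given a floor of 3 counts. Scripts were tested on simulated data.

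Samples were grouped by title. The T-box genes, the 15 gene lists (progenitor, mesothelial, mural, blood and lymphatic endothelial, lymphocyte, macrophage, epithelial, muscle, adipocyte, cofactor, target, family and sort genes) and the tests were chosen with earlier results of these data known. Named genes were the 9 members, the rest of the family, the nearest protein-coding and overlapping genes, the 3 genes most alike in pattern for each member reaching 10 CPM, and listed genes. Gm43050 and Tbx3os2 were named after their values were seen. Sequences are from RefSeq, GRCm38.p6.

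By depot, lymphatic endothelial markers summed to 91.0 to 298 CPM in SAT and 114 to 189 CPM in VAT. Macrophage markers summed to 9.19 to 32.4 CPM in SAT and 17.4 to 30.4 CPM in VAT. Skeletal muscle markers summed to 6.83 to 8.52 CPM in SAT and 5.68 to 10.1 CPM in VAT.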

Additional observations from a re-analysis of the deposited data

Results flagged for a closer look

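The CD26 gate effect on Tbx2 differed between the depots when the SAT gates were read by title, with a difference of 4.13 on the log2 scale (SE 1.03, edgeR adjusted p = 0.0229). By title the CD26+ library was the higher one in SAT, at 9.72 against 1.35 CPM, and the lower one in VAT, at 2.84 against 6.64 and 7.26 CPM. By library name the CD26 library was lower in both depots, and the difference was -1.55 (SE 0.97, edgeR adjusted p = 1.00). The sort genes Dpp4 and F3 went against the SAT titles. By title CD142 also changes with CD26 in SAT and not in VAT, so the gate effects of the depots are not of the same kind. By title 6.61% of all tested genes passed this test, and by name 0.251%. No other tested T-box gene passed this test by title or by name with edgeR, and Tbx5 had adjusted p = 0.0647 by title.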

How the results depend on the processing

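With edgeR and all libraries, 1 T-box gene passed between the depots over all gates. The number was 2 with DESeq2, 0 with limma-voom, 0 with the titles' CD26 status in the model, 2 with that of the library names and 0 in the libraries numbered 2 alone, and between 0 and 1 when each library was left out (0 without any 1 VAT library). Within the CD142+ gate by title it was 4 with no filter, and by name it was 2 or 3 in the alternatives run. For the CD26 gate by library name it was 2 with no filter, 2 with DESeq2 and 0 to 1 with each library left out (Tbx5, without VAT CD26-CD142+ library 2). Without length, 2 genes of SAT and 2 of VAT changed rank.

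The depot change of Tbx2 turned to 0.0185 with upper-quartile scaling and ran from -2.05 to 0.79 with each library left out. In VAT the gate change of Tbx1 turned to 0.91 with limma-voom, and with libraries left out it ran from -1.11 to 1.54, that of Tbx3 from -0.16 to 0.40, of Tbx6 from -0.43 to 0.13 and of Tbx15 from -0.30 to 0.44. The cause was not tested.

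Of all genes, 8 passed between the depots, against 70 with no filter, 465 with DESeq2, 0 with limma-voom, 0 and 83 with CD26 status in the model by title and by name, 0 in the libraries numbered 2 alone, and 0 to 17 with each library left out (17 without SAT library 1, 0 without any 1 VAT library). In VAT 254 passed, against 410 after upper-quartile scaling, 491 unfiltered and 383 without SAT library 1. Within the CD142+ gate by name 375 passed, against 727 with no filter and 580 without SAT library 2. For the CD26 gate by library name 95 passed, against 775 with no filter, 1338 with DESeq2 and 138 to 2034 with each library left out, and by title 0 passed (140 at unadjusted p under 0.05) against 16 with DESeq2 and 0 to 522 with each library left out.

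The numbers that end the library names were not taken to pair the libraries, since not every same-numbered pair correlated above 0.1: deviations from the depot mean correlated at 0.60 for number 1, and at 0.03 and 0.59 for number 2. Pairs with different numbers were at -0.60, -0.03 and -0.59, which mirror these because SAT has 2 libraries, so each library correlated best with its own number. The same-numbered pairs at 0.60 and 0.59 also share CD142 or CD26 in their library names, and the pair at 0.03 shares neither. These correlations therefore cannot separate a shared number from a shared gate name. With this number as a replicate block, 1 T-box gene passed, Tbx15, and 5 genes in all. With 1 VAT CD26-CD142+ library left out, the 4-group fit had no residual degree of freedom and gave values without a test. Counts of 0 to 3 per VAT library limit Tbx4 and Tbx5.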
